A study of Mus musculus with 4 samples.

Results

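The most abundant RNA features with identifiers of the LXLOC form were examined in mouse ovaries before and after the start of follicle growth. They were chosen by level: an LXLOC feature was kept when its mean FPKM (fragments per kilobase of feature length, scaled to the library total) over the 4 libraries was 5 or more and it had counts in at least 1 library of each group. This gave 112 of 3362 LXLOC features, among 50821 features listed in all. The level therefore describes the choice and is not a finding, while the change between the groups was not used in it. No LXLOC feature at this level was counted in only 1 group.

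Day 3 ovaries (2 libraries) came from 3-day-old mice and represent the stage before follicle initiation. Cultured ovaries (2 libraries) were taken at the same age and kept in vitro for 8 days, and represent the stage after it. No other treatment is named, and the strain, the genotype and whether a library is 1 animal or a pool are not stated in these sources. Age after birth and time in culture differ together between the groups and cannot be told apart, and the p-values reflect only how far these libraries differ, which may be technical.

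The ovary of a newborn mouse holds a reserve of primordial follicles, each a resting oocyte wrapped in flat somatic cells. At initiation some of these cells become cuboidal, the oocyte starts to grow and the follicle leaves the reserve. Long non-coding RNAs (lncRNAs) are transcripts without a recognised protein product, and many act in the nucleus on the activity of other genes or as scaffolds for proteins. Cufflinks, an assembler of transcripts from reads, gives assembled loci names that begin with XLOC and their transcripts names that begin with TCONS. The tables' LXLOC loci and LTCONS transcripts carry those strings, but no source used here says what the added letter means. No identifier comes with a gene symbol and 0 matched the mouse gene tables at hand, so positions, sequences, known roles and cell type markers of the ovary were not analysed here. Features are given below by identifier, rank by mean FPKM and length.

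The listed counts summed to between 18215834 and 26566784 per library. The 112 features held 0.798% and 0.861% of these counts in the day 3 libraries and 1.80% and 1.37% in the cultured libraries, with Wilson 95% intervals of 0.794% to 0.801%, 0.858% to 0.865%, 1.797% to 1.808% and 1.367% to 1.378% in that order (counting error only). Both cultured libraries lay above both day 3 libraries, with means of 1.59% ± 0.304 and 0.829% ± 0.0448 (SD, n = 2 each). A two-sided exact permutation test gave p = 0.33, which no comparison of 2 libraries with 2 can go below. After the 10 features with the most counts in the whole table were left out, the shares were 8.44% and 8.87% at day 3 and 11.1% and 10.5% after culture. The 112 features also held 51.2% and 51.6% of all LXLOC counts at day 3 and 62.1% and 63.0% after culture. Cultured library 1 stood apart in the scaling of the libraries, with a TMM factor (trimmed mean of M-values, a scale fitted over all features tested) of 1.45 against 1.03 in cultured library 2 and 0.794 and 0.842 at day 3. Without it the difference in the share of counts between the groups was 0.543 percentage points, against 0.758 with it.

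Levels fell off quickly from the top of the ranking. The median mean FPKM of the 112 features was 14.2, 5 features reached 100 or more, 15 reached 50 or more and 42 lay between 5 and 10. The median feature was at FPKM 12.8 and 12.1 in the day 3 libraries and 12.3 and 12.2 in the cultured libraries. At 5 or more in every library were 73 features, and 83 had a mean of 5 or more in both groups. Of the other 29, 13 had a day 3 mean under 5 and 16 a cultured mean under 5. These 29 passed the level minimum through the group in which they were higher, so a difference between their groups is in part set by the choice.

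**Figure D1:**
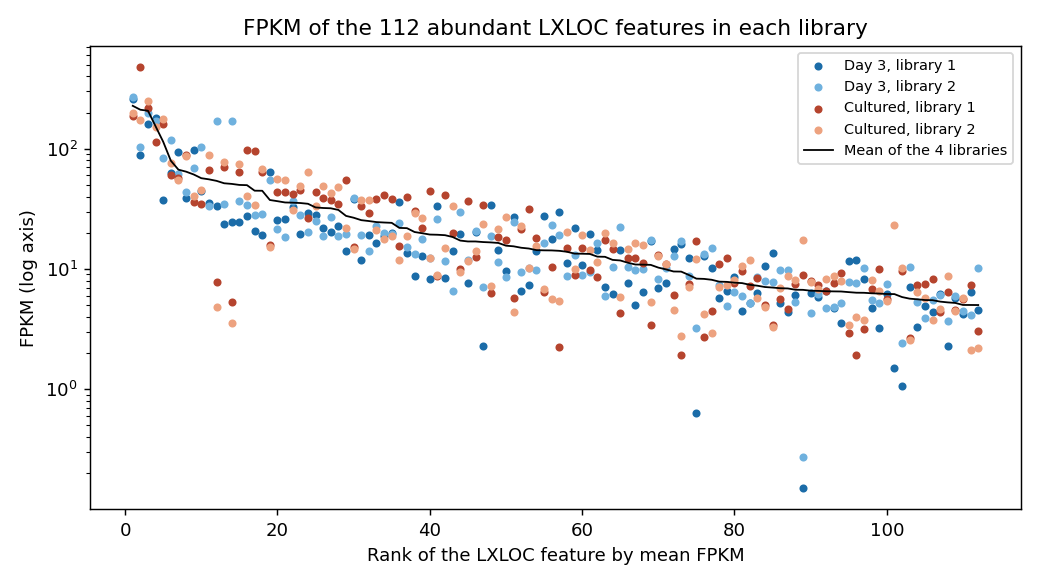
FPKM (log axis) of each of the 112 LXLOC features in each of the 4 libraries, in order of mean FPKM (black line). The points of ranks 12 and 14 in day 3 library 2 stand near 170, far above the other libraries, and the 2 unlisted values of the feature ranked 101 are not drawn because a log axis has no 0.

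LXLOC_057307, a single transcript of 465 bases, ranked first, with FPKM 257 and 269 at day 3, then 188 and 197 after culture. Both cultured libraries were below both day 3 libraries, but the log2 fold change of -0.73 (SE 0.404) did not pass the test (edgeR, BH-adjusted p = 0.263, where BH is the Benjamini-Hochberg adjustment over all features tested), and was -0.45 without cultured library 1 and -1.16 without cultured library 2. LXLOC_044703, ranked 2, with 2 transcripts and a mean length of 4309 bases, was at FPKM 89.3 and 104 at day 3, then at 479 and 172 after culture. The cultured libraries were both higher but differed 2.78-fold from each other, and the feature alone made up 23.9% of the 112 features' counts in cultured library 1 against 8.84% to 12.1% in the other libraries. Its log2 fold change of 1.31 (SE 0.474) did not pass with TMM scaling (edgeR, BH-adjusted p = 0.0819), passed when scaled by the library totals that underlie the FPKM values (the FPKM totals below; 1.75, edgeR, BH-adjusted p = 0.0289), and was 0.79 without cultured library 1 (edgeR, BH-adjusted p = 0.207). Without cultured library 2 the value was 1.61. LXLOC_044703 also passed in DESeq2 (1.24, BH-adjusted p = 0.0129), in limma on log2(FPKM + 0.5) (1.57, BH-adjusted p = 0.0442) and with a filter at FPKM 1 (1.37, edgeR, BH-adjusted p = 0.0436). It did not pass in limma at pseudocounts of 0.1 and 1 (BH-adjusted p = 0.0506 and 0.0541). Nor did it pass with median-ratio factors, no filter, the 10 features with the most counts removed or a replicate block (edgeR, BH-adjusted p = 0.134, 0.175, 0.2395 and 0.091).

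LXLOC_019853, ranked 3, with 5 transcripts and a mean length of 360 bases, had FPKM 160 and 200 at day 3, then 220 and 248 after culture. The cultured libraries were higher by less than the error of the fit, with a log2 fold change of 0.12 (SE 0.403, edgeR, BH-adjusted p = 0.877). LXLOC_016795, a single transcript of 1083 bases, was at FPKM 181 and 169 at day 3, then 114 and 152 after culture. Both cultured libraries were lower, and the log2 fold change of -0.66 (SE 0.438) did not pass (edgeR, BH-adjusted p = 0.363). That value was -0.24 without cultured library 1 (edgeR, BH-adjusted p = 0.728) and passed at -1.31 without cultured library 2 (edgeR, BH-adjusted p = 0.0359). LXLOC_095070, a single transcript of 1490 bases, had FPKM 37.2 and 83.1 at day 3, then 160 and 177 after culture. The day 3 libraries differed 2.23-fold, both were below the cultured ones, and the log2 fold change of 1.22 (SE 0.467) did not pass with TMM scaling (edgeR, BH-adjusted p = 0.0999) but did with the FPKM totals (1.49, edgeR, BH-adjusted p = 0.0387) and in limma at the 3 pseudocounts tried (1.58 to 1.59, BH-adjusted p = 0.0271 to 0.0343). The fold change of LXLOC_095070 was 0.78 without day 3 library 1, 1.85 without day 3 library 2 and 0.73 without cultured library 2, and none of these passed (edgeR, BH-adjusted p = 0.761, 0.197 and 0.285).

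Ranks 6 to 10 lay between mean FPKM 56.9 and 79.5. LXLOC_028730 had FPKM 62.3 and 119 at day 3, then 60.3 and 76.6 after culture, and its groups overlapped. LXLOC_066242 was at 94.0 and 61.2 at day 3, then at 57.2 and 55.5 after culture, with both cultured libraries lower. LXLOC_016978 was at 39.0 and 43.3 at day 3, then at 89.1 and 86.7 after culture, the clearest separation of the groups among the 10 relative to the spread within each. None of these 3 passed the test, with log2 fold changes of -0.65 (SE 0.444), -0.95 (SE 0.414) and 0.80 (SE 0.396) and edgeR, BH-adjusted p-values of 0.375, 0.151 and 0.212. That of LXLOC_028730 lay between -0.15 (without day 3 library 2) and -1.27 (without cultured library 2) and was -0.25 without cultured library 1. LXLOC_066242 was at -0.52 without day 3 library 1. LXLOC_016978 was at 0.42 without cultured library 2, and in limma on log2(FPKM + 0.5) it passed at 1.09 (BH-adjusted p = 0.0377). LXLOC_013038, with 2 transcripts and a mean length of 2411 bases, had FPKM 98.5 and 69.4 at day 3, then 36.4 and 40.2 after culture. It was the only one of the 10 that passed the test with TMM scaling, and it fell by 1.41 on the log2 scale (SE 0.441, edgeR, BH-adjusted p = 0.0443). That call was lost in 7 of the 14 alternatives. When day 3 library 1, day 3 library 2 or cultured library 1 was left out, the fold changes were -1.07, -1.69 and -1.09 (edgeR, BH-adjusted p = 0.546, 0.165 and 0.127). With the FPKM totals, with median-ratio factors, without the 10 features with the highest mean count and in limma on log2(FPKM + 1) they were -1.12, -1.45, -1.44 and -1.09 (BH-adjusted p = 0.0563, 0.0656, 0.0855 and 0.0591). LXLOC_017980, of 243 bases, was at 44.3 and 104 at day 3, then at 34.7 and 45.0 after culture, with overlapping groups (log2 fold change -1.11, SE 0.448, edgeR, BH-adjusted p = 0.121). Its fold change was -0.44 without day 3 library 2 and -0.71 without cultured library 1, and it passed at -1.73 without cultured library 2 (edgeR, BH-adjusted p = 0.0355).

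Cultured ovaries were compared with day 3 ovaries to find which of these features differed. A difference cannot be tied to follicle initiation, because age after birth and time in culture differ between the groups too. All 112 features entered the test. Higher after culture were 4 features, against 5.87% of all 8557 features tested, and lower were 26, against 8.50% of all features tested (edgeR quasi-likelihood test with TMM scaling, Benjamini-Hochberg adjustment over all features). The remaining 82 did not pass. In bulk ovary RNA, fewer cells of a type and less RNA per cell cannot be told apart. The 83 features at a mean FPKM of 5 or more in both groups included 13 that fell and 0 that rose in edgeR (15 were higher at an unadjusted p below 0.05, and DESeq2 called 3 higher). All 4 rises had a day 3 mean under 5.

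Fitted changes above 0 were more frequent than those below it, although falls outnumbered rises among the calls. The median log2 fold change was 0.21 over the 112 features, against 0.08 over all features tested, and 65 of the 112 fitted values were above 0. The median of the 112 was 0.30 without cultured library 1 and turned to -0.19 without cultured library 2. Of the 26 falls, 15 were 4-fold or more, and the smallest called change of the 112 was 1.21 on the log2 scale. By FPKM, both cultured libraries lay above both day 3 libraries for 57 of the 112 features, while 37.9% of all features tested did so. They lay below both for 36 of the 112, against 18.8% of all features tested, and 19 of the 112 overlapped. Of the 648 features with the other identifier form in the tables (NONMMUG) at the same minimum, 323 lay above and 155 below. Of the 1178 LXLOC features tested under the minimum, 274 lay above and 512 below. Whether these sets differ in this order was not tested.

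The balance of calls depended on the scaling. Scaling by the FPKM totals moved the median log2 fold change of all features tested to 0.45 and that of the 112 to 0.55, and gave 11 higher (4.93% of all features tested were called higher on that scale) and 19 lower (3.23%). All 4 rises and 19 of the 26 falls were called under both scalings. Of the called features 13.3% were higher with TMM scaling and 36.7% with the totals. Among the 7 rises called only with the totals were ranks 2, 5, 13 and 18. With TMM scaling the counts of rises and falls also moved when single libraries were left out. The share of all features called in those fits was not worked out.

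**Figure D2:**
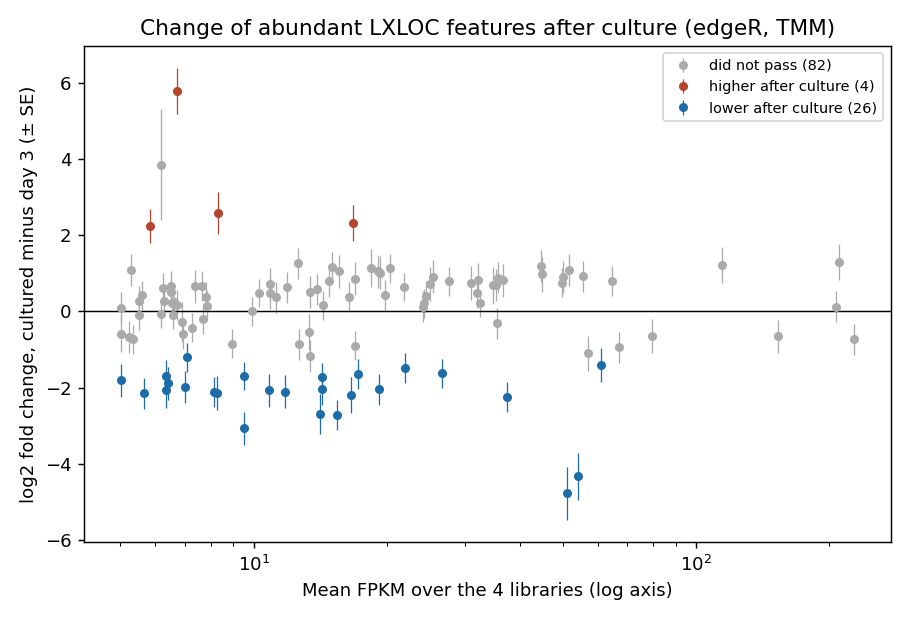
The log2 fold change (cultured minus day 3, edgeR with TMM scaling, bars ± SE) against mean FPKM (log axis) for the 112 LXLOC features. The 26 features that fell lie at all levels up to FPKM 61.1, the 4 that rose lie at FPKM 16.7 or below, and most of the 82 that did not pass lie a little above 0; with the FPKM totals 11 rather than 4 features were called higher.

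LXLOC_015743, a single transcript of 2026 bases ranked 89, rose most. It was at FPKM 0.15 and 0.27 at day 3 (14.1 and 26.5 counts) and at 8.86 and 17.5 after culture (774 and 1429 counts). Both cultured libraries were far above both day 3 libraries, a log2 fold change of 5.78 (SE 0.595, edgeR, BH-adjusted p = 3.4e-05). The day 3 mean of LXLOC_015743 was 0.21, under the minimum of 5, so the choice by level in part set this difference. The log2 fold change lay between 4.73 (without cultured library 2) and 6.36 (without cultured library 1) when each library was left out in turn, and the call was kept in all of the 14 alternatives.

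The other rises were smaller and rested more on single libraries. LXLOC_045868, of 1213 bases and ranked 75, was at FPKM 0.63 and 3.25 at day 3, then at 17.2 and 12.1 after culture (log2 fold change 2.59, SE 0.552, edgeR, BH-adjusted p = 0.00617). LXLOC_001172, with 2 transcripts and a mean length of 1072 bases, ranked 47, was at 2.27 and 7.08 at day 3, then at 34.0 and 23.6 after culture (2.32, SE 0.480, edgeR, BH-adjusted p = 0.00520). LXLOC_095090, of 1061 bases and ranked 102, was at 1.06 and 2.40 at day 3, then at 9.62 and 10.3 after culture (2.24, SE 0.445, edgeR, BH-adjusted p = 0.00401). These 3 also had day 3 means under 5 (1.94, 4.675 and 1.73 in that order), so the choice in part set their differences. In each of these 3 the day 3 libraries differed by more than 2-fold, between 2.26 and 5.16-fold, with library 2 the higher. Without day 3 library 1, the lower of the pair, their log2 fold changes were 1.86, 1.72 and 1.80 and none passed (edgeR, BH-adjusted p = 0.0893, 0.147 and 0.10), and without day 3 library 2 they were 4.14, 3.36 and 2.90. LXLOC_001172 and LXLOC_095090 were named after their values were seen, to complete the 4 rises.

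LXLOC_007970, of 580 bases, and LXLOC_091554, of 304 bases, ranked 14 and 12, fell most and had closely similar profiles. LXLOC_007970 was at FPKM 24.5 and 171 at day 3, then at 5.35 and 3.52 after culture. LXLOC_091554 was at 33.5 and 170 at day 3, then at 7.75 and 4.81 after culture. In both, day 3 library 2 was far above day 3 library 1, by 6.96-fold and 5.09-fold, and both cultured libraries were below both day 3 libraries. The log2 fold changes were -4.78 (SE 0.696, edgeR, BH-adjusted p = 0.000586) and -4.33 (SE 0.616, edgeR, BH-adjusted p = 0.000481). Without day 3 library 2 they were -2.86 and -2.80, and without day 3 library 1 they were -5.57 and -5.05. The size of both falls thus depended on 1 library, while both remained called in all of the 14 alternatives. LXLOC_007970 had a cultured mean of 4.435, under the minimum of 5, so the choice in part set its difference.

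Some other falls had tight replicates, and the features ranked 73, 19 and 30 below are examples that no naming rule picked. Tight replicates were not typical of the 26 falls. Their day 3 replicates differed by a median of 0.51 on the log2(FPKM + 0.5) scale, against 0.42 in the 82 that did not pass. For the cultured replicates these medians were 0.37 and 0.34. LXLOC_070751, with 2 transcripts and a mean length of 1293 bases, ranked 51, had the smallest adjusted p among the falls, with FPKM 27.2 and 24.4 at day 3, then 5.78 and 4.36 after culture (log2 fold change -2.72, SE 0.385, edgeR, BH-adjusted p = 0.000467). Its groups were 25.8 ± 1.93 and 5.07 ± 1.0 (SD, n = 2 each), with no overlap. The feature ranked 73, with 4 transcripts and a mean length of 530 bases, went from 16.1 and 17.2 to 1.92 and 2.79. The feature ranked 19, a single transcript of 568 bases, went from 64.5 and 54.5 to 15.8 and 15.1, the most abundant fall of 4-fold or more apart from LXLOC_007970 and LXLOC_091554. The feature ranked 30, of 221 bases, was at 38.1 and 38.7 at day 3, then at 15.3 and 14.7 after culture, where replicates nearly coincided in both groups. All 3 passed the test with TMM scaling, with log2 fold changes of -3.08, -2.25 and -1.63, but the last did not pass with the FPKM totals (edgeR, BH-adjusted p = 0.0893). Among the 26 falls, 11 were called in all of the 14 alternatives. Several of these 11, among them the feature ranked 73, had a cultured mean under 5, so the choice in part set their difference.

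LXLOC_013466, of 368 bases and ranked 101, shows what the level minimum can admit. It was at FPKM 1.51 in day 3 library 1 and 23.2 in cultured library 2 (22.9 and 298 counts) and was unlisted in the other library of each group. Its mean FPKM rests on cultured library 2, the groups overlapped, and its log2 fold change of 3.85 (SE 1.46) did not pass (edgeR, BH-adjusted p = 0.0955). It was named after its values were seen. At the minimum itself, LXLOC_023457 (FPKM 4.59 and 10.2 at day 3, 3.04 and 2.21 after culture), LXLOC_020792 (6.46, 4.17, 7.30 and 2.13 in the same order) and LXLOC_064320 (4.25, 4.44, 5.60 and 5.78) lay just inside. LXLOC_008134 (7.40, 5.50, 3.43 and 3.43), LXLOC_040036 (4.99, 4.31, 4.44 and 6.02) and LXLOC_083442 (3.51, 4.12, 7.52 and 4.59) lay just outside. The profiles on either side of the minimum were of the same kinds.

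The 112 features ranged in length from 211 bases (LXLOC_028141) to a mean of 13320 bases (LXLOC_064657), with a median of 1213 bases and a middle 50% from 570 to 2984 bases. LXLOC features under the level minimum had a median of 1189 bases, and the 648 NONMMUG features, the other identifier form in the tables, at the same minimum had one of 1013 bases. A single transcript made up 78 of the 112 features (69.6%), against 79.7% of the LXLOC features under the minimum and 68.4% of the NONMMUG features at it. The largest number of transcripts was 10, in LXLOC_039468, of mean length 5351 bases and ranked 61. LXLOC_039468 was at FPKM 19.7 and 9.47 at day 3, then at 9.79 and 14.4 after culture, so that its groups overlapped (log2 fold change -0.53, SE 0.478, edgeR, BH-adjusted p = 0.504; 0.14 without day 3 library 1). LXLOC_028141 was at 14.1 and 6.53 at day 3, then at 19.9 and 33.2 after culture, higher in both cultured libraries but with wide replicates (log2 fold change 1.14, SE 0.501, edgeR, BH-adjusted p = 0.155; 0.28 without cultured library 2).

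Of the 26 falls, 14 were in the 48 features shorter than 1000 bases and 12 in the other 64. Under 500 bases, 4 of 19 features fell, and between 500 and 1000 bases 10 of 29 did, while 0 of these 48 rose in edgeR (7 were higher at an unadjusted p below 0.05, and 0 in DESeq2); their median log2 fold changes were -0.59 and -0.10. Between 1000 and 2000 bases there were 3 rises and 8 falls among 29 features (median 0.21). Between 2000 and 4000 bases there was 1 of each among 12 (median 0.66), and at 4000 bases or more there were 3 falls and 0 rises in edgeR among 23 (2 were higher at an unadjusted p below 0.05, and DESeq2 called 1; median 0.42). With scaling by the FPKM totals these 5 medians became -0.14, 0.30, 0.49, 0.95 and 0.79. By transcript number, 3 of 78 single-transcript features rose and 15 fell (median 0.43), 1 of 19 with 2 transcripts rose and 7 fell (median -0.65), and of 15 with 3 or more 4 fell and 0 rose (median 0.12; 0 were also higher at an unadjusted edgeR p below 0.05 and in DESeq2). With the FPKM totals these medians were 0.75, -0.39 and 0.40. Over all 8557 features tested, of any length and transcript number, 8.50% fell and 5.87% rose with TMM scaling. The shares among all features of each length or transcript class were not worked out. These are descriptions, and differences between the classes were not tested.

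**Figure D3:**
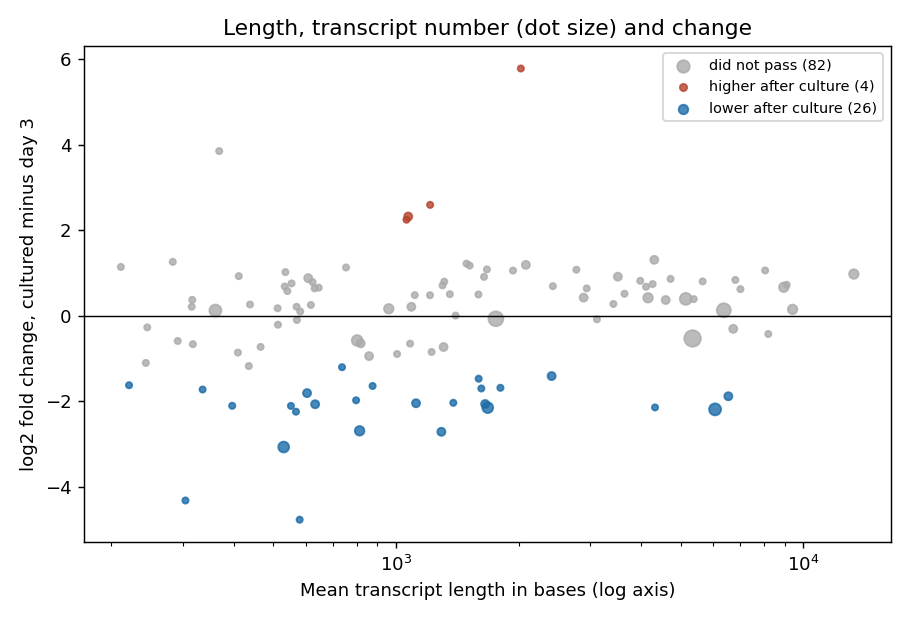
The log2 fold change (cultured minus day 3, edgeR with TMM scaling) against mean transcript length in bases (log axis) for the 112 LXLOC features, with larger dots for more transcripts. Of the 26 features that fell, 14 are shorter than 1000 bases, and the 4 that rose lie between 1061 and 2026 bases. Over all features tested, of any length, 8.50% fell and 5.87% rose.

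The 112 features were then set beside less abundant LXLOC features and equally abundant NONMMUG features. Under the level minimum, 1178 LXLOC features were tested: 61 rose, 292 (24.8%) fell and the median log2 fold change was -0.60. At the minimum, 39 of the 648 NONMMUG features rose, 77 (11.9%) fell and the median was 0.10. The 112 features, with 23.2% falls and a median of 0.21, lay near the first in the share of falls and above both in the median. With the FPKM totals the falls were 121 of 1178, 40 of 648 and 19 of 112, and the medians were -0.27, 0.43 and 0.55. Whether the sets differ was not tested. Day 3 replicates of the 112 differed by a median of 0.44 on the log2(FPKM + 0.5) scale, against 0.28 in the NONMMUG features at the minimum and 0.24 over all features tested. For the cultured replicates the medians were 0.35, 0.33 and 0.43.

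Whole-number counts in all 4 libraries were found for 16 of the 112 features (14.3%), against 17.7% of the NONMMUG features at the minimum and 35.9% of the 1178 LXLOC features that were tested under it. In estimated counts, a read that fits several transcripts is shared out between them, which leaves fractions. The other 96 features may therefore share reads with other features, and their values are uncertain to that extent. Of the 16, 9 fell and 0 rose (0 also at an unadjusted edgeR p below 0.05 and in DESeq2), and of the 96, 17 fell and 4 rose. Over all features tested 8.50% fell and 5.87% rose, and the shares among all those with whole counts were not worked out. No feature of the 112 had a partner of equal length with counts within 10% of its own in every library.

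Several features with neighbouring identifier numbers had similar profiles over the libraries. No source used here says whether neighbouring numbers mean neighbouring positions in the genome. Taking members whose numbers lay within 10 of each other, a distance chosen after the values were seen, gave 8 runs with 22 of the 112 features. The run from LXLOC_064654 to LXLOC_064661 held 5 features of 535 to 13320 bases, among them LXLOC_064657, the longest of all. LXLOC_064657 was at FPKM 20.5 and 28.1 at day 3, then at 96.5 and 34.2 after culture. In all 5, cultured library 1 was the highest and stood 2.80 to 3.60-fold above cultured library 2, and day 3 library 2 stood 1.37 to 1.54-fold above day 3 library 1. With log2 fold changes from 0.80 to 1.06, 0 of the 5 passed in edgeR or DESeq2, and 2 were higher at an unadjusted edgeR p below 0.05. Without cultured library 1 that of LXLOC_064657 was 0.48 (edgeR, BH-adjusted p = 0.467), and without cultured library 2 it was 1.26 (edgeR, BH-adjusted p = 0.0364). LXLOC_064672, just beyond the distance, was at 14.1, 19.5, 54.8 and 22.1 in the same order of libraries.

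The run from LXLOC_095883 to LXLOC_095889 also held 5 features, of 315 to 6384 bases, and cultured library 1 was again the highest in all 5. LXLOC_095885 was at FPKM 27.6 and 33.9 at day 3, then at 97.5 and 40.1 after culture, and LXLOC_095884 at 16.5 and 22.6 and at 38.0 and 21.0. Cultured library 1 stood 1.81 to 2.43-fold above cultured library 2 in the 5 features, which had log2 fold changes from 0.13 to 0.75, and 0 passed in edgeR or DESeq2 or at an unadjusted edgeR p below 0.05. Without cultured library 1 the value of LXLOC_095885 was 0.35 in place of 0.75, and that of LXLOC_095884 was 0.16 in place of 0.39. Over the 112 features the median ratio of cultured library 1 to library 2 was 0.943. On the log2(FPKM + 0.5) scale the median of cultured library 1 minus library 2 was -0.08 over the 112 and 0.43 over the 23 of 4000 bases or more. It was 0.12 over the NONMMUG features at the minimum and 0.36 over all features tested, so values above library 2 were not particular to the runs. Cultured library 1 was at least 2-fold above library 2 in 13 features, of which 5 were in the first run and 4 in the second, and LXLOC_044703 and LXLOC_064672 were 2 of the others. The share of all features tested at 2-fold or more was not worked out. In 4 features cultured library 2 was at least 2-fold above library 1. The TMM factors of the libraries, 1.45 and 1.03, moved in the same direction as these 9 features, and their part in the result was not tested.

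The pairs behaved in several ways. LXLOC_013038 and LXLOC_013039 both fell. LXLOC_013039, of 1383 bases, was at FPKM 27.6 and 16.4 at day 3, then at 6.42 and 6.77 after culture (log2 fold change -2.04, SE 0.421, edgeR, BH-adjusted p = 0.00509; without day 3 library 1 -1.56, edgeR, BH-adjusted p = 0.115). LXLOC_016978 and LXLOC_016979 were both higher in both cultured libraries. LXLOC_016979, of 3980 bases, was at 25.4 and 21.6 at day 3, then at 43.4 and 56.2 after culture (log2 fold change 0.81, SE 0.436, edgeR, BH-adjusted p = 0.248; 0.18 without cultured library 2). LXLOC_091554 and LXLOC_091555 had unlike profiles: LXLOC_091555, of 1938 bases, was at 9.53 and 8.56 at day 3, then at 17.3 and 27.1 after culture (log2 fold change 1.05, SE 0.430, edgeR, BH-adjusted p = 0.124). The value of LXLOC_091555 rested on single libraries: it passed at 1.54 without cultured library 1 (edgeR, BH-adjusted p = 0.0184) and was 0.24 without cultured library 2 (edgeR, BH-adjusted p = 0.668). It also passed in limma at pseudocounts of 0.5 and 0.1 (BH-adjusted p = 0.0447 and 0.0488). Counting 1 feature from each of the 8 runs left 4 rises and 25 falls.

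**Figure D4:**
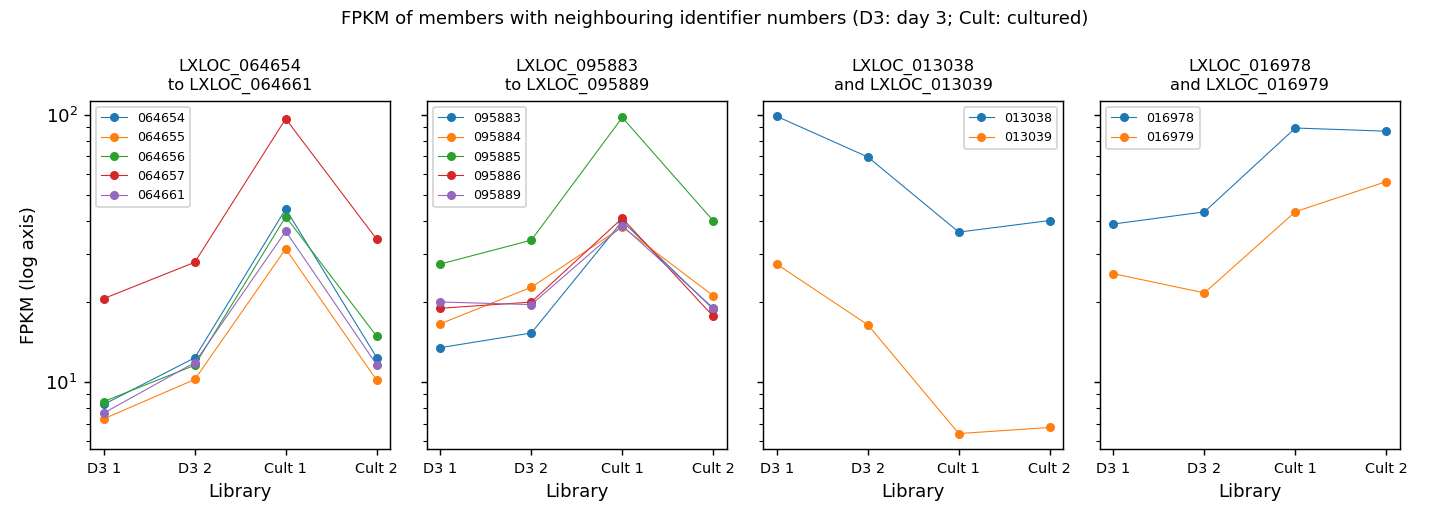
FPKM (log axis) of features with neighbouring identifier numbers in the 4 libraries (D3: day 3, Cult: cultured), with a thin line joining the values of 1 feature. In the runs LXLOC_064654 to LXLOC_064661 and LXLOC_095883 to LXLOC_095889 every feature peaks in cultured library 1, the pair LXLOC_013038 and LXLOC_013039 is lower in both cultured libraries, and the pair LXLOC_016978 and LXLOC_016979 is higher in both.

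The mix of transcripts within a feature was compared through its length. The deposited length of such a feature is a mean over its transcripts and moves when their proportions move. It entered the choice by level through FPKM, which divides by it, so length and choice are not independent. Of the 34 features with several transcripts, both cultured libraries had a longer mean than both day 3 libraries in 12 (35.3%) and a shorter one in 5 (14.7%). Among the 2218 tested features with several transcripts listed in all libraries, these shares were 21.2% and 15.6%. The mean length ranged by 5% or more over the libraries in 15 of the 34 (median range 3.51%), against 1356 of the 2218 (median range 8.20%). LXLOC_044557, with 8 transcripts and ranked 100, moved most, from means of 1427 and 1477 bases at day 3 to 2031 and 2103 bases after culture, 42.4% longer. Its FPKM, which divides by that length, was 6.22 and 7.45 at day 3, then 5.63 and 5.46 after culture, lower in both cultured libraries. Its counts, 419 and 518 at day 3, then 493 and 463 after culture, overlapped between the groups and did not pass (log2 fold change -0.07, SE 0.373, edgeR, BH-adjusted p = 0.923; 0.23 with the FPKM totals, edgeR, BH-adjusted p = 0.722).

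LXLOC_094273, with 3 transcripts, lengthened from 775 and 732 to 904 and 845 bases while its FPKM went from 29.8 and 19.2 to 2.26 and 5.37. LXLOC_021682, with 2 transcripts, went from 600.0 and 604 to 674 and 653 bases while its FPKM went from 17.0 and 17.5 to 3.40 and 5.36. Both fell in the test, with log2 fold changes of -2.70 and -2.07 (edgeR, BH-adjusted p = 0.00324 and 0.00527). Their cultured means, 3.815 and 4.38, were under the minimum of 5, so the choice in part set these falls. LXLOC_095884, with 5 transcripts, lengthened from 4791 and 4899 to 5719 and 5188 bases, with cultured library 1 the longer. LXLOC_066242, ranked 7, shortened from 922 and 890 to 814 and 810 bases. The change in length was larger than the difference between replicates in each of these 5 features, which were named after their values were seen, and 2 libraries against 2 allow no exact permutation p below 0.33.

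**Figure D5:**
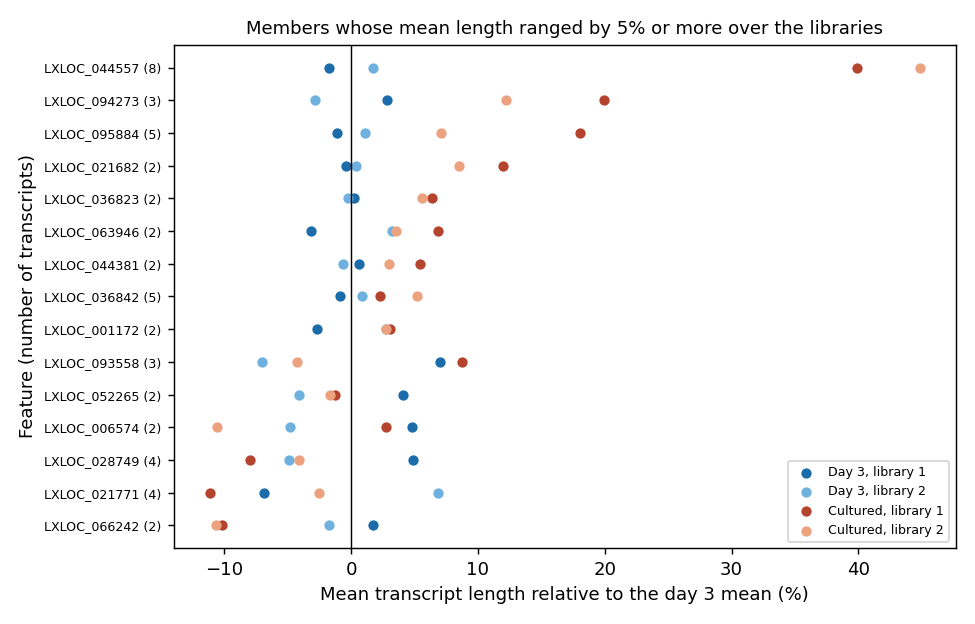
Mean transcript length in each library, as a percentage difference from the day 3 mean, for the 15 features with several transcripts whose mean length ranged by 5% or more over the libraries (number of transcripts in brackets). LXLOC_044557 is 42.4% longer after culture with no overlap between groups, and LXLOC_066242 is shorter in both cultured libraries.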

How the data were processed

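Total RNA of mouse ovaries was sequenced in 4 strand-specific TruSeq libraries (paired-end, HiSeq), per the labels' protocols. HISAT, Cufflinks and the build mm9 are named without roles in the submitters' processing notes, and which tool counted reads is not stated there. Per the file headers, each deposited table gives an expected count (the authors' estimate), an FPKM value (the authors' normalization to length and library total) and a length per feature. Features that a table does not list were set to 0. The members, lists and tests were chosen with earlier results of these data known.

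Expected counts were rounded and tested over all 8557 features that reached FPKM 0.5 in 2 libraries or more, with edgeR 4.0.16 in R 4.3.3 (TMM factors, quasi-likelihood F test, two-sided, Benjamini-Hochberg, adjusted p below 0.05). The SE is the log2 fold change divided by the square root of F. The library totals behind the FPKM values, 49404680 and 49149373 at day 3 and 44367483 and 41392935 after culture, are the slopes of count over FPKM on length. Replicates differed by more than sampling noise (chi-square per degree of freedom 37.8 and 62.1). On simulated counts for this comparison (8557 features), edgeR found 4 of the 74 simulated 2-fold changes, 37 of the 62 at 4-fold and 61 of the 64 at 8-fold, with 9 false calls. Every simulated feature had the same dispersion, 0.1, and the changed ones were drawn from all features tested. Shares were compared with exact permutation tests. Alternatives were DESeq2 1.42.0, limma 3.58.1 on log2(FPKM + 0.5), other scalings and filters, a replicate block and each library left out.

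Features were named by rank (the first 10), by the largest rises and falls and smallest adjusted p, as the longest, the shortest and the one with the most transcripts, at the level minimum, and as consecutive identifiers. No member shared reads by the equal-length rule, and symbols of the marker lists matched 0 identifiers.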

Additional observations from a re-analysis of the deposited data

How the results depend on the processing

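Against 4 features higher and 26 lower with TMM-scaled edgeR, the number higher was 11 with the FPKM totals, 7 with DESeq2, 18, 17 and 13 with limma at pseudocounts of 0.5, 0.1 and 1, and 9 with a filter at FPKM 1. The share of all features called was worked out only for TMM scaling and the FPKM totals. Counts from the other fits in this section may follow how many features each fit called in all, which was not tested. The median log2 fold change, 0.21, was 0.55 with the FPKM totals and 0.49, 0.51 and 0.47 with limma at those pseudocounts; the FPKM values used by limma carry the same totals, and the cause was not tested further. Fits without 1 library, in which the remaining library of that group is taken to vary as the other group does, gave 2 to 14 higher, 15 to 31 lower and medians from -0.19 to 0.30. Among features at FPKM 5 or more in both groups, a set chosen after the data were seen, 0 were higher and 13 lower, with a median of 0.37 (by the same edgeR test): that choice by both group means removed 29 features, which held all 4 rises and 13 of the 26 falls. Median-ratio factors, no filter, removal of the 10 features with the most counts and 1 feature per run of identifiers left both counts within 1.5 times. A replicate block gave 5 higher and 25 lower, with LXLOC_095070 passing at 1.27 (edgeR, BH-adjusted p = 0.0463); no label says that equal replicate numbers pair libraries, and deviations of libraries with equal numbers had r = -0.120 across features. The difference in the share of counts kept its sign in its 6 alternatives. Of the 30 calls, some were lost without day 3 library 1, some without day 3 library 2 and some in other alternatives such as the FPKM totals. None was called in the opposite direction, and 12 were kept in all 14 alternatives. Of these 12, LXLOC_015743 had a day 3 mean under 5. LXLOC_007970, LXLOC_094273, LXLOC_021682 and the features ranked 73, 76, 77 and 103 had cultured means under 5. The choice in part set the difference in these features, and the others of the 12 had means of 5 or more in both groups. Of 350 values of named features, 318 kept direction and side of the threshold, 19 came to pass, 11 no longer passed and 2 changed sign, neither of them called: LXLOC_019853 ranged from -0.38 (without cultured library 2) to 0.45 (without cultured library 1) and LXLOC_039468 from -1.29 (without cultured library 2) to 0.14 (without day 3 library 1). In simulation, most changes of 2-fold were not detected. The simulation gave every feature the same dispersion and drew the changed ones from all features tested, so recovery among the 112 may differ.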
